A study of Mus musculus with 58 samples.

Results

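The 43 genes described here encode the ligands, receptors, antagonists and feedback inhibitors of the fibroblast growth factor (FGF), bone morphogenetic protein (BMP) and Nodal pathways, with a pair of BMP target genes. They were taken by gene symbol, with no measured value in the rule, and all 43 have a row among the 24077 genes of the count table. By role they are 12 FGF ligands, 4 FGF receptors, 4 FGF feedback genes, 8 BMP ligands, 3 BMP receptors, 3 BMP antagonists, 2 BMP targets, 3 Nodal and activin ligands, and 4 genes for a Nodal coreceptor and inhibitors of Nodal or activin. In FGF signalling, secreted ligands bind receptor tyrosine kinases and activate the RAS and ERK cascade, and the cascade in turn induces its own inhibitors, the ERK phosphatase DUSP6 and the Sprouty proteins. BMP ligands bind serine/threonine kinase receptors that phosphorylate SMAD proteins and induce the Id genes, while Chordin, Noggin and Gremlin bind BMPs and block them. Nodal and activins act through a separate set of SMAD proteins, with TDGF1 as a coreceptor of Nodal, the Lefty proteins as Nodal inhibitors and follistatin as an activin inhibitor. In the early mouse embryo, FGF4 is known to maintain trophoblast stem cells through FGFR2, and BMPs and Nodal pattern the epiblast beside the extraembryonic ectoderm (ExE), a trophoblast tissue.

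RNA was sequenced from mouse fully grown oocytes (FGO) with or without knockout of Pcgf1 and Pcgf6. Morulae and ExE were sequenced with or without maternal knockout of both genes. They encode subunits of variant Polycomb repressive complex 1, an enzyme complex that ubiquitinates histone H2A. FGO of strain B6.129 gave 2 libraries of Pcgf1/6 double knockout (KO) and 2 of control (CTR) oocytes labelled wild type. Morulae of a B6.129 x PWK cross gave 2 libraries of double maternal knockout (matKO) and 2 of wild-type CTR embryos, and ExE of the same cross gave 4 matKO and 2 CTR libraries. The sources used here do not give the Cre driver, the age of the ExE, the number of oocytes or embryos pooled or whether replicates came from separate animals, so p-values measure only the spread between these libraries, which may be technical.

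FGO libraries held between 19805264 and 26364085 counts. Morula libraries held 1299715 to 1685510 and ExE libraries 3397585 to 4361832, and these count only reads assigned to a parental allele, so a gene without strain variants in its reads stands at 0 there whatever its expression. Levels are given as CPM, a gene's count scaled to the total of its library, and are compared between libraries of a stage, not between genes, because no transcript lengths were at hand. Pcgf1 had 34.9 and 22.8 CPM in KO oocytes, against 1406 and 1100 CPM in CTR oocytes, and Pcgf6 had 177 and 220 CPM in KO oocytes, against 396 and 429 CPM in CTR oocytes. In morulae and ExE, Pcgf1 had 0 to 3.08 CPM of allele-assigned reads in every library, which checks nothing. Pcgf6 had 215 and 200 CPM in matKO and 198 and 239 CPM in CTR morulae. In ExE it had 199, 177, 208 and 175 CPM in matKO and 296 and 265 CPM in CTR. Reads of Pcgf6 were thus present in every matKO embryo library. The summed level of 9 oocyte markers was 13272 and 16836 CPM in KO and 17543 and 16968 CPM in CTR oocytes, and the 9 trophoblast stem cell and ExE markers, all detected in ExE, summed to 1267 to 1454 CPM in matKO and 1177 and 1206 CPM in CTR ExE. Morulae had 157 to 234 CPM of the pluripotency gene Nanog, while Pou5f1, which marks the same cells, had no allele-assigned read in morulae or ExE. Replicate 3 of matKO ExE stood apart in its parental balance, with 35.1% maternal reads over the autosomes, against 51.2% to 51.5% in the other ExE libraries. Results below that use ExE are also given without it where that changes a call.

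In FGO, 38 of the 43 genes had a count in at least 1 library, and Fgf4, Fgf15, Nodal, Lefty1 and Chrd had none. In morulae 31 had an allele-assigned count and 12 had none, and in ExE 22 had one and 21 had none, among them Fgf4 and Bmp4. Because zeros in embryos can mean missing strain variants, they were not read as absence of expression. A count of 0 in a library allows up to 0.114 to 0.151 CPM in FGO, 1.78 to 2.31 CPM in morulae and 0.688 to 0.883 CPM in ExE, by a floor of 3 counts that covers counting error only.

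Among the ligands, Fgf8, known for limb and brain patterning, was present in all 4 oocyte libraries, at 189 and 164 CPM in KO and 169 and 133 CPM in CTR oocytes, and had no allele-assigned read at the later stages. Bmp5 had 248 and 207 CPM in KO and 237 and 246 CPM in CTR oocytes. Spry4, a Sprouty feedback inhibitor of ERK signalling, had 228 and 189 CPM in KO and 168 and 188 CPM in CTR oocytes. Bmp5 did not separate the groups, while Spry4 was higher in both KO libraries than in both CTR libraries without passing the test (log2 fold change 0.12, SE 0.14, adjusted p = 0.684).

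The receptor genes Fgfr1, Fgfr2, Bmpr1a and Bmpr2 had at least 10 counts in every library of all 3 stages, as did the BMP target Id3. The type I BMP receptor gene Bmpr1b had 146 and 122 CPM in KO and 157 and 156 CPM in CTR oocytes, but 0 to 0.742 CPM in morulae and 0 in every ExE library. Bmpr1a, the other type I receptor of the list, had 66.2 and 39.7 CPM in KO and 53.6 and 46.0 CPM in CTR oocytes. The type II receptor gene Bmpr2 had 95.5 and 102 CPM in KO and 80.5 and 84.6 CPM in CTR oocytes. Fgfr2 had 39.6 and 30.7 CPM in KO and 24.4 and 26.2 CPM in CTR oocytes, and Fgfr1 had 8.63 and 6.11 CPM in KO and 6.49 and 5.76 CPM in CTR oocytes. Fgfr3 and Fgfr4 had at most 0.341 CPM in any oocyte library. In morulae, Fgfr2 had 117 and 171 CPM in matKO and 188 and 163 CPM in CTR, Fgfr1 had 32.3 and 34.1 CPM in matKO and 32.6 and 30.2 CPM in CTR, and Fgfr3 had 6.16 and 6.68 CPM in matKO and 1.19 and 8.82 CPM in CTR. The matKO and CTR values overlapped for all 3 of these receptors, and the heat map shows the level of all 43 genes in every library.

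**Figure D1:**
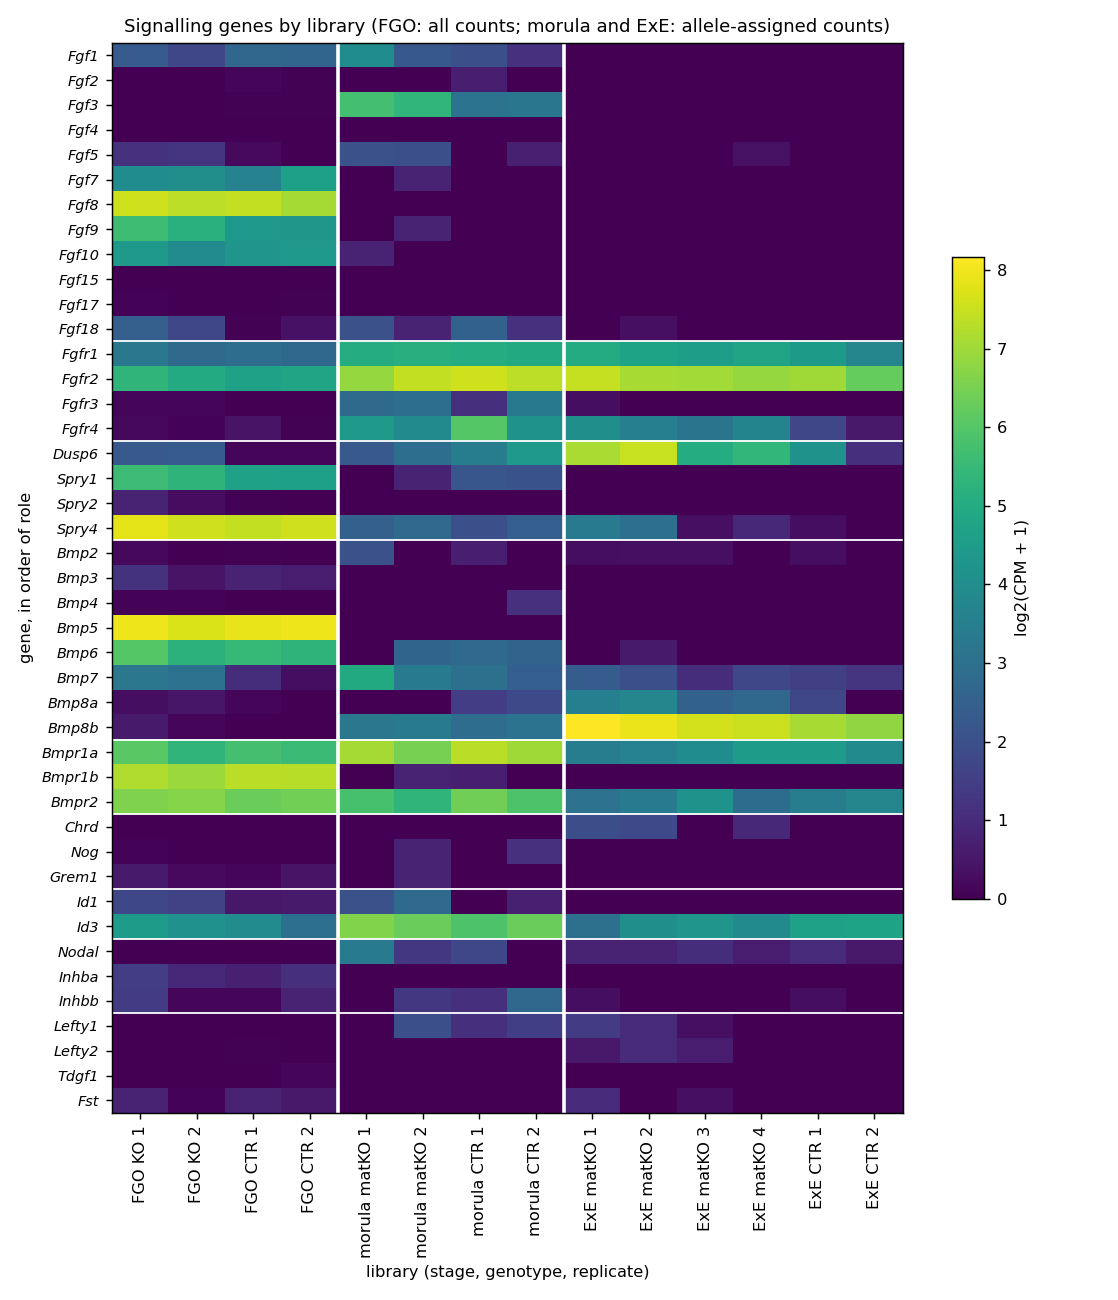
Level of each of the 43 genes (rows, grouped by role) in each of the 14 libraries (columns, KO or matKO left of CTR in each stage), as log2(CPM + 1) on the colour scale, with white lines between roles and stages. Fgf8, Bmp5, Bmpr1b and Spry4 are bright in the 4 FGO libraries, Bmp8b is brightest in ExE and Dusp6 is brightest in matKO ExE. FGO values rest on all counts and embryo values on allele-assigned counts.

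In oocytes, 7 of the 43 genes rose in the knockout and 0 fell. The 7 were 3 FGF ligands (Fgf18, Fgf9 and Fgf5), 2 FGF feedback genes (Dusp6 and Spry1), 1 BMP ligand (Bmp7) and 1 BMP target (Id1), with fold changes between 1.67 for Spry1 and 37.4 for Dusp6. The test was edgeR's quasi-likelihood test on 13459 genes, with a Benjamini-Hochberg adjusted p under 0.05 taken as a call, and it called 7.22% of all genes, 5.35% as risen and 1.87% as fallen. The low-count filter left 24 of the 43 genes to test, of which 9 had an unadjusted p under 0.05, 7 higher and 2 lower. DESeq2 called the same 7 genes. Fgf5, Fgf18, Dusp6 and Bmp7 reached the filter's level in fewer than 2 CTR libraries and passed through the KO libraries. Neither the share of risers nor the median of the genes tested is therefore evidence about the pathway. The median log2 fold change was 0.18 over the 24 genes and 0.0039 over all genes tested.

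Dusp6, the ERK phosphatase, had 84 counts in each KO library, or 3.82 and 4.24 CPM, against 2 and 3 counts in the CTR libraries, or 0.0759 and 0.117 CPM. The KO libraries were alike and far above both CTR libraries, with a log2 fold change of 5.23 (SE 0.53, adjusted p = 0.00124). Spry1, a Sprouty inhibitor, was well expressed in CTR and had 47.7 and 38.7 CPM in KO oocytes, against 24.4 and 23.6 CPM in CTR oocytes. Its log2 fold change was 0.74 (SE 0.17, adjusted p = 0.0342). Spry2 was too low to test, with 17 and 4 counts in KO and 1 and 0 in CTR, a ratio of 26.2 with a 95% counting interval of 4.21 to 1082. With no filter, Spry2 was also called as risen.

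Fgf18, a ligand known from bone and lung development, had 99 and 46 counts in KO oocytes, or 4.50 and 2.32 CPM, against 1 and 8 counts in CTR oocytes, or 0.0379 and 0.311 CPM. Its log2 fold change was 4.14 (SE 0.70, adjusted p = 0.0116). Fgf9, a ligand known from gonad and lung development, had 48.8 and 35.7 CPM in KO oocytes, against 19.6 and 19.0 CPM in CTR oocytes. The fold change of Fgf9 was 2.03, or 1.02 on the log2 scale (SE 0.18, adjusted p = 0.0126). Fgf5, a ligand of the primed epiblast and later a regulator of hair growth, had 27 and 28 counts in KO oocytes, against 4 and 0 counts in CTR oocytes (log2 fold change 3.93, SE 0.87, adjusted p = 0.0318). The KO libraries lay above the CTR libraries for each of these ligands. Of the other ligands tested, Fgf1 had 4.04 and 2.37 CPM in KO and 5.54 and 5.41 CPM in CTR oocytes (log2 fold change -0.88, SE 0.31, adjusted p = 0.143), and Fgf7, Fgf8 and Fgf10 had log2 fold changes of -0.31, 0.12 and -0.25. The receptors Fgfr1 and Fgfr2 had log2 fold changes of 0.16 and 0.37 and were not called.

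In GRCm38.p6, Bmp7 lies at chr2:172868012-172940321, Id1 at chr2:152736251-152737410 and Spry1 at chr3:37639947-37644599. Bmp7, a BMP ligand with roles in kidney and eye development, had 187 and 144 counts in KO oocytes, or 8.50 and 7.27 CPM, against 29 and 6 counts in CTR oocytes, or 1.10 and 0.233 CPM. Its log2 fold change was 3.45 (SE 0.56, adjusted p = 0.0118), and the CTR libraries differed from each other more than the KO libraries did. Id1, an inhibitor of basic helix-loop-helix factors and a classic BMP target, had 53 and 39 counts in KO oocytes, against 12 and 13 counts in CTR oocytes (log2 fold change 2.07, SE 0.45, adjusted p = 0.0289). Id3, its paralog, had 21.3 and 16.5 CPM in KO and 14.2 and 6.92 CPM in CTR oocytes and was not called (log2 fold change 0.73, SE 0.32, adjusted p = 0.246). Bmp5, Bmp6 and Bmp3 had log2 fold changes of -0.19, 0.16 and 0.20, and the receptors Bmpr1a, Bmpr1b and Bmpr2 had -0.03, -0.33 and 0.17, none called. Bmp8b had 11 and 2 counts in KO oocytes and 0 in both CTR libraries, at least 5.40-fold higher in KO when 3 counts are allowed to the CTR group as a whole, and was not tested. Nodal had no count, and the activin subunit genes Inhba and Inhbb and the follistatin gene Fst were not called (adjusted p = 0.672, 0.720 and 0.698).

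The plot of the 7 genes by library shows that no KO value met a CTR value. Across the 24 genes tested, 13 had groups that did not overlap in CPM, or 54.2%, against 50.2% of all genes tested, so separation of 2 from 2 libraries was nearly as common in the whole table. Dusp6, Fgf18 and Fgf9 were called with each library left out in turn. Without KO replicate 1 the other 4 genes were not called, with adjusted p-values of 0.0639 for Bmp7, 0.0808 for Id1, 0.0747 for Fgf5 and 0.0632 for Spry1. Without CTR replicate 2, Id1 (0.0841), Fgf5 (0.0739) and Spry1 (0.197) were not called, without CTR replicate 1 Id1 (0.103) and Spry1 (0.164) were not and Id3 was called as risen, and without KO replicate 2 Fgf5 (0.0697) was not.

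**Figure D2:**
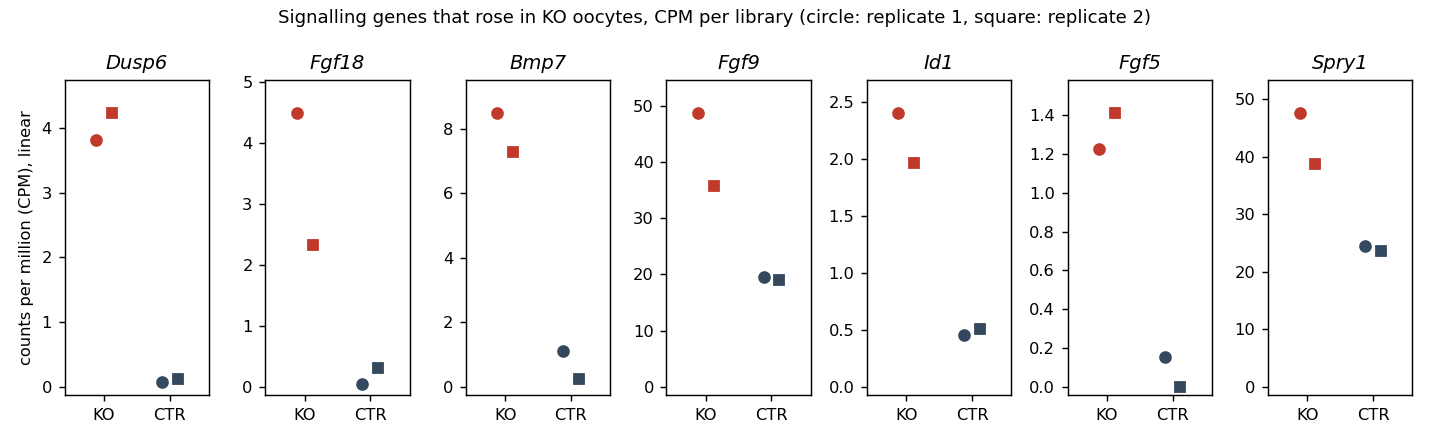
CPM (linear y axis, a scale per gene) of the 7 genes that rose in Pcgf1/6 KO oocytes, in each KO (red, left) and CTR (dark, right) library, with circles for replicate 1 and squares for replicate 2. The KO points lie above the CTR points in all 7 panels, from 3.82 and 4.24 against 0.0759 and 0.117 CPM for Dusp6 to 47.7 and 38.7 against 24.4 and 23.6 CPM for Spry1.

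Some marker lists of other cell types moved with the oocyte groups. The 7 ectoplacental cone markers summed to 214 and 142 CPM in KO and 26.1 and 21.9 CPM in CTR oocytes, mostly from Phlda2, while Prl2c2, Prl3d1 and Hand1 of that list were at 0. The 9 granulosa cell markers, all detected, summed to 51.0 and 51.2 CPM in KO and 57.0 and 65.9 CPM in CTR oocytes. Cyp19a1 made up most of that sum, at 36.8 and 40.3 CPM in KO and 46.6 and 55.8 CPM in CTR oocytes. Foxl2, Amh and Wt1 of the list had at most 0.341 CPM in any oocyte library. The 8 epiblast and nascent mesoderm markers, with Utf1 and Otx2 at 0, summed to 32.3 and 23.9 CPM in KO and 16.6 and 20.7 CPM in CTR oocytes. Pou5f1 made up most of this, at 23.9 and 21.1 CPM in KO and 14.2 and 19.4 CPM in CTR oocytes. T, Mixl1 and Nanog had at most 0.455 CPM in any oocyte library. The 10 visceral endoderm markers, all detected, summed to 22.4 and 18.2 CPM in KO and 12.6 and 15.1 CPM in CTR oocytes. The 6 decidua markers, with Hoxa11 at 0, summed to 27.4 and 17.8 CPM in KO and 52.7 and 48.4 CPM in CTR oocytes. Most of that came from Prl8a2, at 26.2 and 16.2 CPM in KO and 47.9 and 45.3 CPM in CTR oocytes. Fewer cells of a type and less RNA per cell cannot be told apart in bulk libraries. The part of these lists in the rise of the 7 genes was not tested. The KO replicates differed from each other more than the CTR replicates did, with a chi-square per degree of freedom of 58.3 against 18.9 over genes.

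Sequences of the start regions are shown for the 4 genes called in FGO with the smallest p that have a window in the RefSeq table, to show how CpG-rich the starts of the genes that rose are. Each window runs from 250 bases before to 50 bases after an annotated start in GRCm38.p6, 5′ to 3′ on the gene's strand, with every CG dinucleotide in capitals. The Dusp6 window is chr10:99262981-99263280 (plus strand), the Fgf18 window chr11:33147351-33147650 (minus strand), the Fgf9 window chr14:58072436-58072735 (plus strand) and the Fgf5 window chr5:98253934-98254233 (plus strand). The Fgf9 window lies inside the gene, which spans chr14:58070671-58112854, and not at its outer start.
Dusp6: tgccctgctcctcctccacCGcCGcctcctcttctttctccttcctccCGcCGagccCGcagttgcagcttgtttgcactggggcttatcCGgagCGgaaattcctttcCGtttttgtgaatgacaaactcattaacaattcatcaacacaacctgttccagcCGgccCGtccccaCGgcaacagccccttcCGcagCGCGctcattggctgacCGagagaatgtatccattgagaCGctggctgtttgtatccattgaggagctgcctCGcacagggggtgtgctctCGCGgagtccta
Fgf18: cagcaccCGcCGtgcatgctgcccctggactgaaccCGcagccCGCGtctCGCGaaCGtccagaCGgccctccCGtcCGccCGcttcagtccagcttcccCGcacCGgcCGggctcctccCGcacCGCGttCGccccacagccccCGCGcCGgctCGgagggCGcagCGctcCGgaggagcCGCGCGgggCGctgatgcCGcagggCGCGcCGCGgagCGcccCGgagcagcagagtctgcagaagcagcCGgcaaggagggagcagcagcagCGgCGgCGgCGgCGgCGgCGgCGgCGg
Fgf9: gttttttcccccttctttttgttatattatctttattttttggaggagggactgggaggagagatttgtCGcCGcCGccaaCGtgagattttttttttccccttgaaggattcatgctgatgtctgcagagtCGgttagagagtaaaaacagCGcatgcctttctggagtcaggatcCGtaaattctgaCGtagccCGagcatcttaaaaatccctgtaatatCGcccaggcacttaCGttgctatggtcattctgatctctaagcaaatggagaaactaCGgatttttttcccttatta
Fgf5: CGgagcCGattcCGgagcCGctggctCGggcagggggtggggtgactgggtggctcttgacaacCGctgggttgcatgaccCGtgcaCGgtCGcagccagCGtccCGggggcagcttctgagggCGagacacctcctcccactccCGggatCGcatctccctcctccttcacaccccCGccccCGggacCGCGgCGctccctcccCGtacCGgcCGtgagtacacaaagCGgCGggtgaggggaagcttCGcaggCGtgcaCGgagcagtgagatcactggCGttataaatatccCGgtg
They hold 19, 47, 12 and 29 CG dinucleotides for Dusp6, Fgf18, Fgf9 and Fgf5. A window was found for 29 of the 43 genes. The 5 risers with a window held a median of 29 CG dinucleotides (12 to 47), the 11 genes tested and not called a median of 11 (4 to 48), the 13 genes not tested a median of 23, and all 32851 windows of the table a median of 7. The ranges of the first 2 of these sets overlapped, and the difference between them was not tested. The E-box letters CACGTG, which read the same on both strands, occurred in 0 of the 5 risers' windows, in 2 of the 11 windows of genes not called (Fgfr2 and Bmp6), in Bmp4 among those not tested, and in 7.15% of all windows. The E2F-like letters GCGGGAA, searched on both strands and not overlapping the E-box letters, were in no window of the 29 genes and in 4.6% of all windows.

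Beyond the 43 genes, 95 other genes of the 3 pathways were in the table, and 60 were tested in oocytes. Of these, 11 rose and 1 fell, while 5.35% of all genes tested rose and 1.87% fell. Among the risers were the FGF pathway genes Fgf13, Fgf16, Spred1, Dusp4 and Etv5 and the BMP pathway genes Smad1, Smad7, Bambi, Id2 and Msx2. The gene that fell was Tgfb3. Fgf13, Fgf16, Dusp4, Smad7 and Msx2 were below the filter's level in CTR and passed through the KO libraries. Neither the share of risers nor the median of these genes is therefore evidence about the pathways. Fgf16, an FGF ligand, had 3.73 and 3.64 CPM in KO and 0.0379 and 0.117 CPM in CTR oocytes (log2 fold change 5.39, SE 0.58, adjusted p = 0.00157). Fgf13, an intracellular FGF homologous factor that is not secreted, had 52 and 35 counts in KO oocytes and 0 in both CTR libraries, at least 36.1-fold higher in KO. Msx2, a homeobox target of BMP signalling, had 2.09 and 1.67 CPM in KO and 0.114 and 0.0778 CPM in CTR oocytes (log2 fold change 4.12, SE 0.60, adjusted p = 0.00597). Bambi, a decoy receptor that dampens BMP signalling, had 13.9 and 7.22 CPM in KO and 1.59 and 2.14 CPM in CTR oocytes (log2 fold change 2.38, SE 0.35, adjusted p = 0.00619). Smad7, an inhibitory SMAD, had 19 and 13 counts in KO oocytes and 0 in both CTR libraries, at least 13.3-fold higher in KO. The median log2 fold change of the 60 genes was 0.48, and it is the same with Fgf13 and Smad7 at their bounds. Over all genes tested it was 0.0039.

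In morulae, no gene of the 43 passed the test between matKO and CTR embryos. Fgf3, an FGF ligand known from inner ear and tail development, came closest, 5.92-fold higher in matKO morulae. The Fgf3 gene lies at chr7:144838612-144843348 in GRCm38.p6, beside Fgf4 and Fgf15. edgeR called 12 of 9063 genes in this comparison, or 0.132%, with 2 higher (0.0221%) and 10 lower (0.11%) in matKO. Of the 43 genes, 10 were tested, with 0 called, 3 with an unadjusted p under 0.05 and 1 called by DESeq2 (Fgf3). The median log2 fold change was -0.06 over the 10 genes and -0.02 over all genes tested.

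Fgf3 had 67 and 55 allele-assigned reads in matKO morulae, or 51.5 and 40.8 CPM, against 13 reads in each CTR library, or 7.71 and 8.19 CPM. Both matKO libraries were well above both CTR libraries, with a log2 fold change of 2.57 (SE 0.37, adjusted p = 0.0558). Fgf3 was called under 7 of the 8 alternatives, with adjusted p-values from 0.00071 to 0.131 over the 8. The highest of these came without CTR replicate 1. Fgf5 had 4 reads in each matKO library and 0 and 1 in the CTR libraries, a ratio of 9.89 with a 95% counting interval of 1.33 to 439, and was not tested.

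Bmp7 had 30.0 and 9.65 CPM in matKO morulae, against 7.12 and 4.41 CPM in CTR morulae, so the groups did not overlap but matKO replicate 1 lay well above the other 3 libraries. Its log2 fold change was 1.80 (SE 0.67, adjusted p = 0.208), and 2.41 without matKO replicate 2 (adjusted p = 0.0314), where it was called, but 0.77 without matKO replicate 1 (adjusted p = 0.753). Dusp6 had 3.85 and 6.68 CPM in matKO morulae, against 10.1 and 20.2 CPM in CTR morulae (log2 fold change -1.46, SE 0.62, adjusted p = 0.251). Fgfr4 had 26 and 19 reads in matKO morulae, against 108 and 27 reads in CTR morulae (log2 fold change -1.21, SE 0.61, adjusted p = 0.318), and without CTR replicate 1 its log2 fold change was 0.03. The type II receptor gene Bmpr2 had 53.9 and 40.1 CPM in matKO and 83.1 and 58.6 CPM in CTR morulae (log2 fold change -0.55, adjusted p = 0.323). Id3 had 96.9 and 77.2 CPM in matKO and 58.7 and 78.7 CPM in CTR morulae (log2 fold change 0.38, adjusted p = 0.414). Bmpr1a had 133 and 89.8 CPM in matKO and 161 and 126 CPM in CTR morulae, with a log2 fold change of -0.32. Id1 was not tested, at 4 and 8 reads in matKO and 0 and 1 in CTR morulae, a ratio of 14.8 with a 95% counting interval of 2.19 to 634. Nodal had 12 and 2 reads in matKO and 4 and 0 in CTR morulae, with overlapping groups, and was not tested.

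The groups did not overlap in 5 of the 10 genes tested, or 50%, against 53.1% of all genes tested in morulae. Of the other pathway genes, 33 were tested and 0 were called by edgeR, 7 had an unadjusted p under 0.05, and DESeq2 called 1, Id2. Those with the smallest p were Id2, a BMP target, at 99.3 and 130 CPM in matKO and 212 and 211 CPM in CTR morulae (log2 fold change -0.84, adjusted p = 0.0743), then Bambi (-0.67), the activin receptor gene Acvr2b (-1.45), Fgfbp1 (-0.70) and Skil (-0.80). The sum of the trophectoderm markers moved with the groups here, through Krt8, Krt18, Dppa1, Gata3 and Cdx2. Tead4 and Tfap2c of that list overlapped, with Tead4 at 299 and 215 CPM in matKO and 241 and 228 CPM in CTR. The 7 trophectoderm markers, all detected, summed to 1213 and 1367 CPM in matKO and 2138 and 1945 CPM in CTR morulae. The 9 trophoblast stem cell and ExE markers, with Esx1 at 0, summed to 325 and 367 CPM in matKO and 427 and 432 CPM in CTR morulae. The 7 ectoplacental cone markers, with Prl2c2 and Prl3d1 at 0, summed to 111 and 83.1 CPM in matKO and 25.5 and 61.7 CPM in CTR morulae. Most of that came from Hand1, at 96.9 and 74.9 CPM in matKO and 14.2 and 46.0 CPM in CTR, while Ascl2 and Phlda2 overlapped. The part of these lists in the values above was not tested.

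In ExE, no gene of the 43 passed the test either, and edgeR called 0 of all 8386 genes tested, or 0%, with 1161 at an unadjusted p under 0.05. DESeq2 called 214. Among the 43 genes, 12 were tested, 0 were called by edgeR and 7 had an unadjusted p under 0.05, 6 higher and 1 lower in matKO, and DESeq2 called 3, all higher, namely Fgfr4, Bmp8b and Bmp8a. The 6 genes with the smallest p were 1 FGF receptor, 2 BMP ligands, 1 BMP target, 1 FGF feedback gene and 1 BMP antagonist. Fgfr4, Dusp6, Spry4, Bmp7, Bmp8a and Chrd reached the filter's level in fewer than 2 CTR libraries and passed it through matKO. The median of the genes tested is therefore not evidence about the pathway. The median log2 fold change was 0.76 over the 12 genes, also with Chrd at its bound, and 0.0045 over all genes.

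Fgfr4, an FGF receptor best known from endoderm and liver, lies at chr13:55152818-55168759 in GRCm38.p6. It had 15.6, 10.5, 7.83 and 11.8 CPM in matKO ExE, against 2.37 and 0.459 CPM in CTR ExE. All 4 matKO libraries lay above both CTR libraries, which rested on 10 and 2 reads, and the log2 fold change was 2.98 (SE 0.55, adjusted p = 0.117). Fgfr1 had 31.8, 25.7, 22.1 and 26.5 CPM in matKO and 20.9 and 12.2 CPM in CTR ExE (log2 fold change 0.67, SE 0.27, adjusted p = 0.310). Fgfr2 had 173, 138, 131 and 116 CPM in matKO and 128 and 74.5 CPM in CTR ExE (log2 fold change 0.44, SE 0.22, adjusted p = 0.396). The matKO and CTR values of Fgfr2 overlapped and those of Fgfr1 just did not, while Fgfr3 had 1 read in the 6 libraries.

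Among the feedback genes, Spry4 had 37, 28, 1 and 3 reads in matKO ExE, against 1 and 0 reads in CTR ExE, a ratio of 39.0 with a 95% counting interval of 6.77 to 1561 (adjusted p = 0.293). Only matKO replicates 1 and 2 held more than 3 reads of Spry4. Dusp6, described here after its values were seen, was split in the same way, at 139, 180, 32.1 and 41.5 CPM in matKO and 17.1 and 1.15 CPM in CTR ExE. Its log2 fold change was 3.43 with an SE of 1.37 (adjusted p = 0.379), and the CTR libraries, at 72 and 5 reads, were far apart from each other.

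The BMP ligand genes Bmp8a and Bmp8b are paralogs on chromosome 4 with closely similar sequences, so the split of reads between them is uncertain. Bmp8b lies at chr4:123104308-123126094 and Bmp8a at chr4:123312645-123343252 in GRCm38.p6. Bmp8b, which is known to act from the ExE in the induction of germ cells, had 287, 242, 194 and 180 CPM in matKO ExE, against 136 and 111 CPM in CTR ExE. All 4 matKO libraries lay above both CTR libraries, with a log2 fold change of 0.85 (SE 0.19, adjusted p = 0.155). Bmp8a had 10.5, 12.7, 4.86 and 5.59 CPM in matKO ExE, against 2.37 and 0 CPM in CTR ExE (log2 fold change 2.81, SE 0.85, adjusted p = 0.233). Chrd, the gene of the BMP antagonist Chordin, had 12, 10, 0 and 3 reads in matKO ExE and 0 in both CTR libraries, at least 4.71-fold higher over the group by the same rule of 3 counts (adjusted p = 0.297). The groups of Chrd overlapped, since matKO replicate 3 also had 0. The BMP target Id3 went the other way, at 7.09, 15.7, 18.4 and 14.1 CPM in matKO ExE, against 24.6 and 25.9 CPM in CTR ExE (log2 fold change -0.90, SE 0.33, adjusted p = 0.290). Bmpr1a had 10.02, 11.2, 14.6 and 22.1 CPM in matKO and 22.0 and 13.8 CPM in CTR ExE, and Bmpr2 had 7.33, 9.49, 17.0 and 6.48 CPM in matKO and 9.95 and 12.4 CPM in CTR ExE, with overlapping groups. Nodal had 0.459 to 1.08 CPM in the 6 libraries, close to the floor. The Nodal inhibitor genes Lefty1 and Lefty2, whose reads may also be split wrongly between the paralogs, had 12 and 8 reads in all matKO libraries and 0 in CTR, at least 2.26-fold and 1.51-fold higher over the group, with matKO replicate 4 at 0 for both.

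The groups did not overlap in 7 of the 12 genes tested, or 58.3%, against 23.8% of all genes tested in ExE. Of the 7, Fgfr4, Dusp6, Spry4 and Bmp8a passed the filter through matKO, where they are high, so the share is not evidence about the pathway, and Spry4 separates by 1 read in matKO replicate 3 (0.270 CPM) against 1 read in CTR replicate 1 (0.237 CPM). Those 7 were Fgfr1, Fgfr4, Dusp6, Spry4, Bmp8a and Bmp8b, higher in matKO, and Id3, lower in matKO. edgeR called none of the 12 with any single library left out, matKO replicate 3 included. The bars of ExE values by library show these genes beside marker lists that also differed between the groups. The 7 ectoplacental cone markers, with Prl2c2 and Prl3d1 at 0, summed to 444, 1161, 1439 and 761 CPM in matKO and 2192 and 3494 CPM in CTR ExE. The 9 trophoblast stem cell and ExE markers summed to 1454, 1440, 1414 and 1267 CPM in matKO and 1177 and 1206 CPM in CTR ExE. Within that list Elf5, Eomes, Esrrb and Sox2 were higher in all 4 matKO libraries. Eomes had 348, 284, 168 and 198 CPM in matKO and 104 and 24.5 CPM in CTR ExE. Tfap2c was lower in all 4, at 157, 270, 404 and 309 CPM in matKO and 494 and 598 CPM in CTR. Cdx2, Esx1, Ets2 and Wnt7b of the list overlapped. The 7 trophectoderm markers, with Dppa1 at 0, summed to 2526 to 5318 CPM in matKO and 7790 and 8277 CPM in CTR ExE. In that list Krt8, Krt18 and Tfap2c were lower in all 4 matKO libraries. Gata3 (20.6 to 28.5 against 18.7 and 16.5 CPM) and Tead4 (45.6 to 70.6 against 30.8 and 16.0 CPM) were higher in all 4. Cdx2 overlapped between the groups. The 8 epiblast and nascent mesoderm markers, with Otx2, Sall2 and Pou5f1 at 0, summed to 289, 249, 175 and 153 CPM in matKO and 153 and 138 CPM in CTR ExE. The 10 visceral endoderm markers, with Apoa1 and Hnf4a at 0, summed to 6.48 to 21.8 CPM in matKO and 2.84 and 1.60 CPM in CTR ExE. The part of these lists in the values of the signalling genes was not tested.

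**Figure D3:**
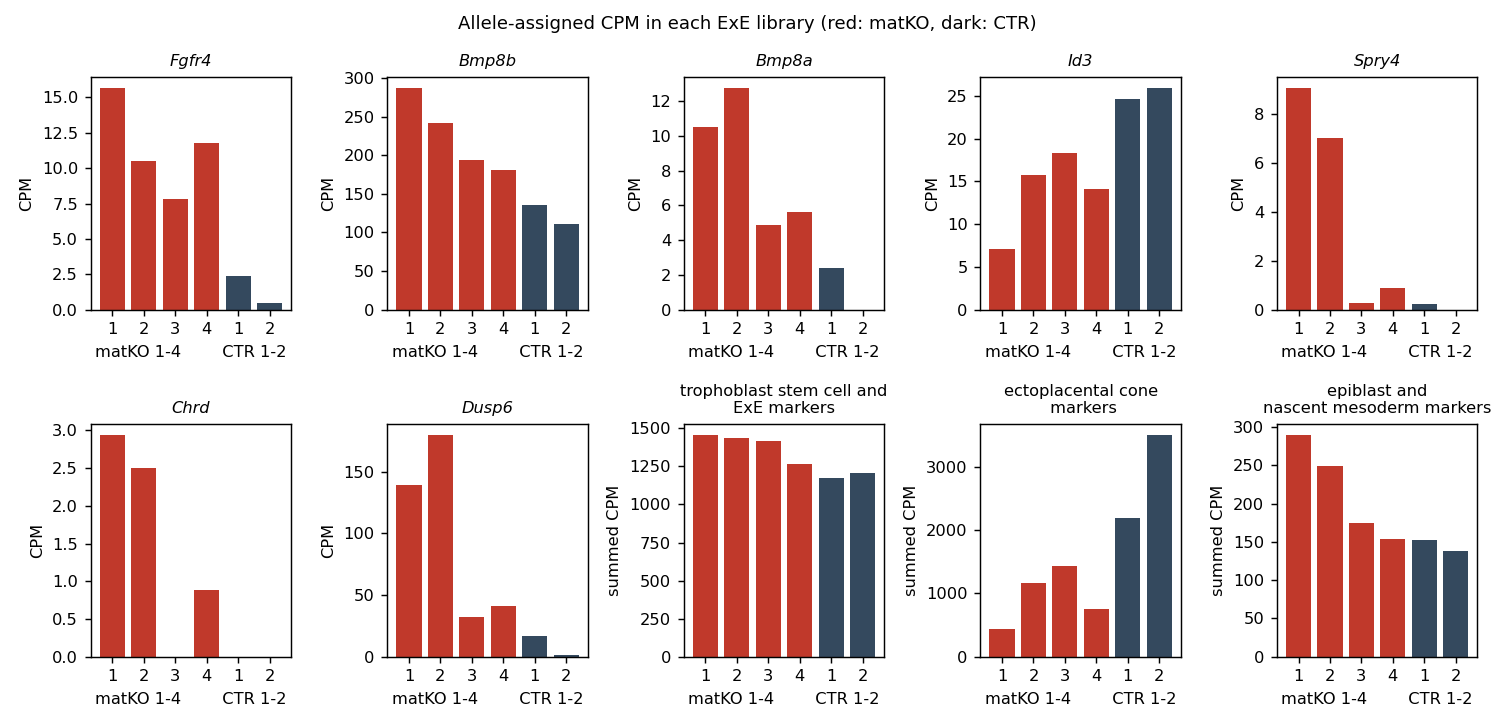
Allele-assigned CPM (linear y axes from 0, a scale per panel) in each of the 4 matKO (red, left) and 2 CTR (dark, right) ExE libraries, for 7 signalling genes and for the summed CPM of 3 marker lists. Fgfr4, Bmp8b and Bmp8a are higher in all 4 matKO libraries, Id3 is lower in all 4, Spry4, Chrd and Dusp6 are highest in matKO replicates 1 and 2, and the ectoplacental cone list is lower in all 4 matKO libraries.

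Of the other pathway genes, 34 were tested in ExE and 0 were called by edgeR, 9 had an unadjusted p under 0.05, and DESeq2 called 6. Those with the smallest p were the ERK phosphatase gene Dusp7, at 18.1, 13.0, 8.10 and 11.8 CPM in matKO and 4.50 and 1.83 CPM in CTR ExE (log2 fold change 1.98, adjusted p = 0.155), the immediate early gene Egr1 (-3.66), the follistatin-like gene Fstl3 (-1.54), Bambi (1.25) and Etv5 (2.60), an ETS factor gene induced by FGF signalling, at 17.1, 17.5, 2.43 and 6.48 CPM in matKO and 2.84 and 0.688 CPM in CTR ExE. Like Dusp6 and Spry4, Etv5 was highest in matKO replicates 1 and 2.

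The plot of fold changes puts the 3 stages side by side. Dusp6 had a log2 fold change of 5.23 in KO oocytes, -1.46 in matKO morulae and 3.43 in matKO ExE, and only the first was called. Whether the effect differed between stages was tested as a difference of effects in 1 fit of all 14 libraries and 13869 genes. The kind of knockout (KO or matKO) and the way of counting change with the stage, so the 3 cannot be told apart here. For morulae minus FGO, edgeR called 383 genes, or 2.76%, with 0.353% higher and 2.41% lower in morulae, and 0 of the 26 pathway genes tested, with 7 at an unadjusted p under 0.05 and 1 called by DESeq2 (Dusp6). The smallest p-values belonged to Spry1, with a difference of -3.75 on the log2 scale (SE 0.99, adjusted p = 0.0690), then Bmp8b (adjusted p = 0.0798), Fgf18 at -4.70 (SE 1.35, adjusted p = 0.0818), Fgf1 at 3.01 (SE 0.95, adjusted p = 0.129), Dusp6 at -6.60 (SE 2.18, adjusted p = 0.172) and Fgf3 (adjusted p = 0.182). For Bmp8b and Fgf3 no size is given, because the FGO CTR or KO libraries hold 0 reads. Spry1 had 0 and 1 reads in matKO morulae and 6 and 5 in CTR morulae.

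For ExE minus FGO, edgeR called 305 genes, or 2.2%, with 0.361% higher and 1.84% lower in ExE, and 0 of the 26 pathway genes, with 5 at an unadjusted p under 0.05 and 1 called by DESeq2 (Fgfr4). Id3 had a difference of -1.64 on the log2 scale (SE 0.49, adjusted p = 0.107), Bmp8b an adjusted p of 0.108, Fgfr4 a difference of 4.01 (SE 1.34, adjusted p = 0.162), Bmp7 -2.77 (SE 0.95, adjusted p = 0.175) and Fgfr1 0.50 (SE 0.39, adjusted p = 0.723). Spry4 had an adjusted p of 0.251, and 0.0291 without matKO ExE replicate 3, where it was called. Without FGO KO replicate 2, Bmp8b was called in both differences between stages, with adjusted p-values of 0.0273 for morulae and 0.0352 for ExE. These 2 contrasts share the FGO libraries.

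**Figure D4:**
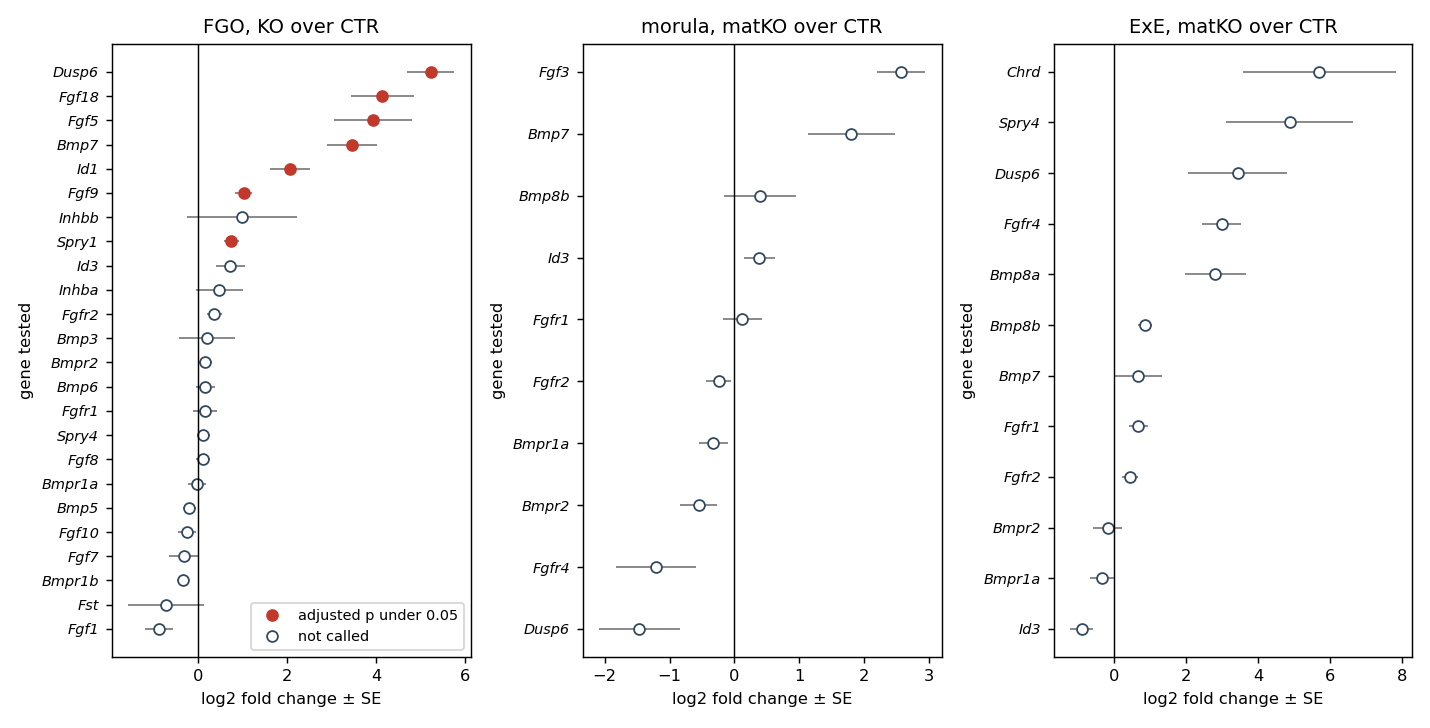
Log2 fold change (x axis, points, with the standard error as lines) of each gene tested in FGO (KO over CTR), morulae and ExE (matKO over CTR), sorted by value in each panel, filled red where the adjusted p was under 0.05. The 7 filled points all stand in the FGO panel, right of 0, and Dusp6 lies at 5.23 in FGO, -1.46 in morulae and 3.43 in ExE; the ExE points of Chrd and Spry4 rest on 0 and 1 CTR reads, so their size depends on the prior count.

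Between control stages, Bmp8b rose in CTR ExE, 27.5-fold over CTR morulae, while Bmpr1a, Bmpr2, Fgf3, Bmp6, Fgfr4 and Id3 fell. edgeR called 67.5% of 9977 genes in this comparison, 27.8% higher and 39.7% lower in ExE, and 7 of the 11 pathway genes tested, a share near that of all genes. The median log2 fold change was -1.14 over the 11 genes, also with Fgf3 and Bmp6 at their bounds, and -0.28 over all genes tested, and 10 of the 11 (90.9%) had groups that did not overlap, against 85.4% of all genes. Fgf3, Fgfr4, Dusp6, Bmp6 and Bmp7 fell short of the filter's level in some or all CTR ExE libraries and passed it through CTR morulae. The median and the shares are therefore not evidence about the pathway.

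Bmp8b had 136 and 111 CPM in CTR ExE, against 6.53 and 7.56 CPM in CTR morulae (log2 fold change 4.78, SE 0.29, adjusted p = 5.11e-08). The BMP receptor genes were lower in ExE. Bmpr1a had 22.0 and 13.8 CPM in CTR ExE, against 161 and 126 CPM in CTR morulae (log2 fold change -2.34, SE 0.28, adjusted p = 1.3e-05). Bmpr2 had 9.95 and 12.4 CPM in CTR ExE, against 83.1 and 58.6 CPM in CTR morulae (log2 fold change -1.99, SE 0.31, adjusted p = 0.000141). Fgfr4 had 2.37 and 0.459 CPM in CTR ExE, against 64.1 and 17.0 CPM in CTR morulae (log2 fold change -4.15, SE 0.79, adjusted p = 0.00138). Fgf3 had no read in CTR ExE and 26 in CTR morulae, at least 22.7-fold lower in ExE by library totals. Bmp6 had none in CTR ExE and 18 in CTR morulae, at least 15.7-fold lower by library totals. Both fell (adjusted p = 0.000229 for Fgf3 and 0.000564 for Bmp6), but with 1 morula library left out they no longer passed the filter and were not tested. The fold changes of the test use TMM scaling instead, with factors of 0.772 to 1.28 in this comparison. Ratios of CPM therefore differ from these fold changes, and the 2 bounds do not hold on the TMM scale. Id3 had 24.6 and 25.9 CPM in CTR ExE, against 58.7 and 78.7 CPM in CTR morulae (log2 fold change -0.77, SE 0.27, adjusted p = 0.0251), and it was not called by DESeq2 (0.0783), without morula CTR replicate 2 (0.198) or without ExE CTR replicate 1 (0.0732). DESeq2 called the other 6 genes. Fgfr2, Fgfr1, Bmp7 and Dusp6 were not called, with log2 fold changes of -0.13, -0.27, -1.14 and -0.09.

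Of the 37 other pathway genes tested between these stages, 11 rose and 12 fell in ExE, while 27.8% of all genes rose and 39.7% fell. Gdf3, a TGF-beta family ligand of pluripotent cells, had 0.237 and 0.688 CPM in CTR ExE and 138 and 188 CPM in CTR morulae (log2 fold change -7.67, SE 0.44, adjusted p = 3.63e-08). Klb, the coreceptor of endocrine FGFs, had 0.237 and 0 CPM in CTR ExE and 24.9 and 37.2 CPM in CTR morulae. Gsc, a Nodal target, had a log2 fold change of -5.01, Fgfbp1, an FGF carrier, 4.09, and Gab1, an adaptor of receptor kinases, 1.16.

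The parental alleles of the signalling genes gave no call in the knockouts. The test asked whether the ratio of paternal to maternal reads shifted in matKO libraries, with a term for each library, over genes with a mean of at least 20 reads. All morula and ExE libraries came from the B6.129 x PWK cross, so parent of origin and strain cannot be told apart in the shares. In morulae it called 3 of 7635 genes, or 0.0393%, all towards the paternal allele, and 0 of the 7 pathway genes tested, with 0 at an unadjusted p under 0.05 and 0 called by DESeq2. In ExE it called 5 of 6857 genes, or 0.0729%, with 0.0292% towards the paternal and 0.0438% towards the maternal allele, and 0 of 9 pathway genes, with 2 at an unadjusted p under 0.05 and 0 called by DESeq2.

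Fgfr2 had maternal shares of 34.2% and 30.4% in matKO morulae, on 152 and 230 reads, against 48.6% and 36.4% in CTR morulae, on 317 and 258 reads. The shift was 0.62 on the log2 scale towards the paternal allele (SE 0.28, adjusted p = 0.635), and the exact 95% intervals of the second CTR library (30.5% to 42.6%) and the first matKO library (26.7% to 42.3%) overlapped. In ExE the same gene had 56.4%, 49.2%, 35.6% and 49.1% in matKO and 43.9% and 43.7% in CTR libraries (shift -0.47, SE 0.16, adjusted p = 0.537). The lowest of these shares was in matKO replicate 3, whose autosomes are 35.1% maternal as a whole. Bmpr1a had 56.6% and 60.3% in matKO and 49.1% and 52.5% in CTR morulae (shift -0.48, SE 0.21, adjusted p = 0.631). Id3 had 59.5% and 59.6% in matKO and 53.5% and 60.0% in CTR morulae, and Bmpr2 54.3% and 37.0% in matKO and 44.3% and 33.3% in CTR morulae. Neither separated the groups.

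Bmp8b in ExE had 50.8%, 45.9%, 36.6% and 56.6% maternal reads in matKO, on 613 to 1173 reads, and 52.6% and 47.1% in CTR libraries (shift -0.08, SE 0.15, adjusted p = 0.976). Its matKO and CTR shares overlapped. Bmp8a, the other gene with an unadjusted p under 0.05 beside Fgfr2, had 65.1%, 74.5%, 66.7% and 78.9% in matKO ExE, on 18 to 51 reads, and 30.0% in CTR replicate 1, on 10 reads, with no read in CTR replicate 2 (shift -2.61, SE 1.10, adjusted p = 0.727). Dusp6 had 58.4%, 62.2%, 47.1% and 59.6% in matKO and 59.7% in CTR replicate 1 of ExE, with CTR replicate 2 at 5 reads, and a shift of 0.03. Fgfr1 had 78.5%, 68.0%, 42.7% and 68.9% in matKO and 60.2% and 67.9% in CTR ExE (shift -0.38, SE 0.40, adjusted p = 0.952). Fgf3, with too few reads in CTR morulae for a narrow interval, had 65.7% and 76.4% in matKO and 69.2% and 76.9% in CTR morulae, and the 2 groups overlapped. In the morula libraries Fgfr3 gave 17 maternal and 0 paternal reads in matKO and 16 maternal and 0 paternal reads in CTR, too few for the test.

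**Figure D5:**
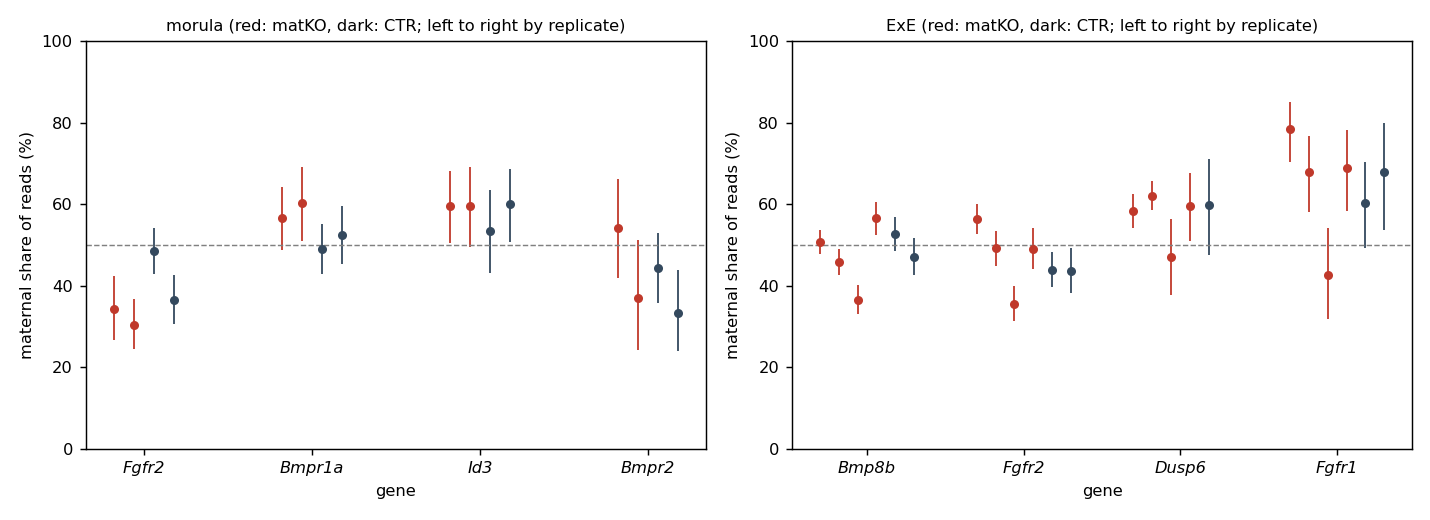
Maternal share of allele-assigned reads in percent (y axis) for the 4 tested genes with most reads in morulae (left) and ExE (right), for each matKO (red, left) and CTR (dark, right) library, with exact 95% binomial intervals of counting error as lines. The dashed line is 50%, the third matKO ExE library lies lowest for all 4 ExE genes, such as 36.6% for Bmp8b, and Dusp6 has no point for CTR replicate 2.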

How the data were processed

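The authors deposited 1 table of counts per gene for 14 RNA-seq libraries, whole numbers that were not normalized per the file headers and values: 1 total per FGO library, and a maternal and a paternal allele-assigned count per morula and ExE library, 24 columns in all. Per the submitters' processing notes, the tools used in the series include bcl2fastq 2.17, Trim Galore 0.6.4, STAR 2.7.3 and RSEM 1.3.1 and the build mm10; which of them made the counts is not given there. The SMART-Seq kit named in the labels does not mark strand, so reads of overlapping or antisense genes cannot be told apart.

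Maternal and paternal counts were summed for expression, a change from the planned single total per library, and CPM was computed from library totals. edgeR 4.0.16 was run on TMM-scaled counts after its low-count filter (quasi-likelihood test, robust, Benjamini-Hochberg adjustment over all genes, threshold 0.05), per stage, between CTR stages and for differences between stages; SE is the log2 fold change over the root of F. The allelic fit had a term per library, an allele term and an allele by matKO term, with a mean of at least 20 reads and X-linked genes left out in ExE. Alternatives were DESeq2 1.42.0, its size factors in edgeR, no filter, a replicate block and each library left out; statistics were tested on simulated data. Intervals are exact at 95% and cover counting error only. Bounds, and ratios given with counting intervals, use library totals without TMM scaling.

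The genes named are, in each comparison, those called, up to 12 by smallest p, filled up to 6 by smallest p where fewer were called; the 3 with the highest CTR level per stage and every receptor; in the allelic tests the 4 with most reads; and the 5 other pathway genes with the smallest p. Dusp6 in ExE and other genes given only as values were added after values were seen. Members and lists were chosen with earlier results of these data known. The 40 CUT&RUN samples and 4 reciprocal-cross morula RNA samples were not used here. The values of 1 gene of the wider pathway list are not reported here.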

Additional observations from a re-analysis of the deposited data

Results flagged for a closer look

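Among 32 sets of 4 values screened for a library far from the other 3, of which chance would flag about 1 in 20, 2 stood out, both in matKO ExE. The summed decidua markers reached 18.33 CPM in replicate 1, against 0 in the other 3 matKO libraries. All of it came from Prl8a2, while Dcn, Col1a1, Col3a1, Hand2 and Hoxa11 were at 0 in replicate 1. The autosomal maternal share was 35.13% in replicate 3, against 51.25% to 51.53% in the other 3.

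For other genes of the pathways the effect in matKO embryos differed from that in KO oocytes, by the test of the difference itself. FGO were counted on all reads and embryos on allele-assigned reads. Stage, kind of knockout and way of counting cannot be told apart in these differences. The effect in morulae minus that in FGO was -2.717 on the log2 scale for Acvr2b (adjusted p = 0.0195), -3.035 for Bambi (adjusted p = 0.00262) and -6.594 for Smad7 (adjusted p = 0.00172). In ExE minus FGO it was 1.879 for Dusp7 (adjusted p = 0.048), -4.786 for Egr1 (adjusted p = 0.0144), -2.873 for Acvr1 (adjusted p = 0.0457) and -6.122 for Smad7 (adjusted p = 0.00297). Smad7 has 0 counts in both FGO CTR libraries, so the size of its fitted differences depends on the prior count and is no bound. The p-values are edgeR's, adjusted over all genes.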

How the results depend on the processing

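Of the values of named genes under the alternatives, 380 kept their direction and side of the threshold, 33 newly passed it, 13 no longer passed it and 6 changed sign. Counts of calls moved most. In FGO the 972 genes called became 1630 with no filter and 767 to 2029 with 1 library left out, and the 7 signalling genes 8 with no filter (Spry2 added) and 3 to 6 with a library left out. In morulae the 12 genes became 54 with DESeq2 size factors, 208 with DESeq2, 489 with no filter and 7 to 524 with a library left out, and the 0 signalling genes became 1 (Fgf3) under each of the first 3 and 0 to 2 with a library left out. In ExE the 0 genes became 214 with DESeq2, 112 with no filter and 0 to 6 with a library left out, and the 0 signalling genes 3 with DESeq2 and 2 with no filter. Between CTR stages, 7 signalling genes became 13 with no filter and 4 to 9 with a library left out. For morulae minus FGO, 383 became 775 with DESeq2 and 184 to 438 with a library left out, and 0 signalling genes became 1 with DESeq2, 2 with no filter and 0 to 1 with a library left out; for ExE minus FGO, 305 became 522 and 155 to 373, and 0 became 1, 2 and 0 to 1. The 3 allelic calls in morulae became 2 with TMM, 9 with at least 10 reads, 15 with DESeq2 and 0 to 3 with a library left out, and the 5 in ExE 4 to 14. Fgfr4 in morulae (-1.21) was 0.03339 without CTR replicate 1 and -1.845 without CTR replicate 2. Allelic shifts near 0 changed sign: with a library left out, Bmpr2 in morulae ran between -0.8983 and 0.0799 (the second without matKO replicate 1), Bmp8b in ExE between -0.2471 and 0.0692 (without CTR replicate 2, and 0.00566 without matKO replicate 4) and Dusp6 in ExE between -0.0653 (without CTR replicate 2, and -0.0307 without matKO replicate 1) and 1.239. With a replicate block, calls were 2021 in FGO (9 signalling genes, with Id3 added as risen and Fgf1 as fallen), 299 in morulae (1), 921 in ExE (7: Fgfr4, Chrd, Spry4, Bmp8b, Bmp8a and Fgfr2 risen, Id3 fallen), 699 for morulae minus FGO (2) and 690 for ExE minus FGO (3). The labels do not say that replicate numbers pair libraries, and deviations of same-numbered libraries correlated at 0.232 in FGO, 0.165 in morulae, and 0.254 and 0.0567 in ExE. The cause of these moves was not tested. Where a group kept 1 library, it is assumed to vary like the others. The filter left 10 signalling genes to test in morulae and 12 in ExE; depth, strain variants and expression were not separated.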

Other observations

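A few signalling genes with few allele-assigned reads in morulae had libraries that read a single parental allele or opposite alleles. Nodal gave 0 maternal and 14 paternal reads over the matKO libraries, and 4 maternal and 0 paternal reads over the CTR libraries. Bmp8b gave 0 maternal of 11 reads and 10 of 13 in the matKO libraries, and 8 of 11 and 2 of 12 in the CTR libraries. Fgfr3 gave 17 maternal reads of 17 in matKO and 16 of 16 in CTR morulae. Parent of origin and strain cannot be told apart in this cross. Nodal, Bmp8b and Fgfr3 were picked after their values were seen, and none was tested in morulae for an allelic difference between matKO and CTR.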
